A study of Mus musculus with 18 samples.

Results

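RNA polymerase II (Pol II) is assembled from subunits that are each encoded by a separate gene. Of these subunit genes, 10 (*Polr2a*, *Polr2b*, *Polr2c*, *Polr2d*, *Polr2e*, *Polr2f*, *Polr2g*, *Polr2h*, *Polr2i* and *Polr2k*) were taken by gene symbol from the 54446 genes counted, and all 10 had enough reads to be tested. The measurements were nascent RNA from mouse embryonic stem (mES) cells, either wild type (WT) or *Tet2* knockout (*Tet2*-KO, *Tet2*-/-). Cells took up 1 mM 5-ethynyl uridine (EU), a uridine analogue that marks RNA made while it is present, for 10, 20 or 40 min, and the marked RNA was captured and sequenced with strand information. Each of the 6 groups had 3 replicates, 18 libraries in all. Both genotypes were cleared of feeder cells before the experiment and grown in serum with LIF, the GSK3 inhibitor CHIR99021 and the MEK inhibitor PD0325901. Each genotype was a single line, so a difference between genotypes cannot be told apart from a difference between these lines, and the replicates are dishes whose p-values measure the spread between dishes.

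Pol II transcribes protein-coding genes. Its largest subunit, *Polr2a*, and the second largest, *Polr2b*, together form the active site, and *Polr2a* carries the long C-terminal domain whose phosphorylation accompanies initiation, elongation and termination. *Polr2c* belongs to the platform on which the enzyme assembles, and *Polr2i* lies at the jaw, where it helps the enzyme to deal with misincorporated nucleotides. *Polr2d* and *Polr2g* make the stalk that contacts the emerging RNA. *Polr2e*, *Polr2f*, *Polr2h* and *Polr2k* are also subunits of RNA polymerases I and III (Pol I and Pol III). Every proliferating cell uses all of these genes.

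Of the 10 genes, 7 had a promoter window in RefSeq (GRCm38.p6, 250 bases before to 50 bases after the annotated start). Shown here are the stretches that no annotated exon covers for *Polr2a* and *Polr2c*, whose share of gene reads was higher in the libraries labelled *Tet2*-KO, and for *Polr2e*, whose share had the log2 fold change nearest to 0. The share of *Polr2f* was higher too, but its window left no such stretch to show. Capitals mark short promoter motifs that were searched on both strands. The motif TATAAA is the TATA box of focused start sites. The motif CCAAT is known as a site of the factor NF-Y. The motif GGGCGG is known as a site of Sp factors and reads CCGCCC where it lies on the other strand. The motif CCGGAA is known as the core of ETS factor sites and reads TTCCGG on the other strand. The stretches lie at chr11:69758638-69758883 (*Polr2a*, minus strand), chr8:94857200-94857449 (*Polr2c*, plus strand) and chr10:80039796-80039909 (*Polr2e*, minus strand).
Polr2a: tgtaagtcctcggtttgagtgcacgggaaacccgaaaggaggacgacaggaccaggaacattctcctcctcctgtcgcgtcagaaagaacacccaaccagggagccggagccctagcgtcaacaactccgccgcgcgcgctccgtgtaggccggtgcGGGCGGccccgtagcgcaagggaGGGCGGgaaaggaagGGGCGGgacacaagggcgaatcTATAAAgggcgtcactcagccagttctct
Polr2c: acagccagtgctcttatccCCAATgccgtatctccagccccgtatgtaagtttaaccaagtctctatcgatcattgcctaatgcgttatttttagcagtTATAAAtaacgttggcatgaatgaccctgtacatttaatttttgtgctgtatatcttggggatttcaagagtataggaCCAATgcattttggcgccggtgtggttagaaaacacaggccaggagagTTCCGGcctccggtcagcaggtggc
Polr2e: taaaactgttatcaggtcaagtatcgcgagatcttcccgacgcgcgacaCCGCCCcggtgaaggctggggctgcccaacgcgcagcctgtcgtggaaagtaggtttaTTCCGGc
The *Polr2a* window held TATAAA from position -33 to -28 and GGGCGG 3 times, starting at -93, -70 and -55, counted from the annotated start. *Polr2c* held TATAAA further upstream, from -151 to -146, with CCAAT starting at -231 and -73. Its window held CCGGAA starting at -25 and, past the stretch shown, at 18. *Polr2e* had no TATAAA in its window. Neither had *Polr2f*, whose window held no GGGCGG and 1 CCGGAA. The *Polr2e* window held GGGCGG 3 times, as that of *Polr2a* did, starting at -201, -112 and -69. Only the match at -201 lies in the stretch shown above. The same window also held CCGGAA starting at -143. TATAAA was present in 13.6% of all 32851 windows, CCAAT in 37.4%, GGGCGG in 35.7% and CCGGAA in 14.9%. CpG dinucleotides numbered 30 in the 300 bases of *Polr2a*, 18 in *Polr2c* and 32 in *Polr2e*, against a median of 7 over all windows. A match to these letters is a description and does not show that a factor binds.

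Positions are those of mm10 in GENCODE M21. *Polr2a* (ENSMUSG00000005198.15) spans chr11:69733997-69758637 on the minus strand, *Polr2b* (ENSMUSG00000029250.5) chr5:77310147-77349324 on the plus strand and *Polr2c* (ENSMUSG00000031783.10) chr8:94857450-94873535 on the plus strand. *Polr2d* (ENSMUSG00000024258.3) spans chr18:31789159-31796701 on the plus strand and *Polr2g* (ENSMUSG00000071662.3) chr19:8793127-8798577 on the minus strand. *Polr2i* (ENSMUSG00000019738.15) is the shortest, at chr7:30231948-30233390 on the plus strand. The shared subunits *Polr2e* (ENSMUSG00000004667.18) and *Polr2f* (ENSMUSG00000033020.7) span chr10:80035949-80039795 on the minus strand and chr15:79141009-79151774 on the plus strand. *Polr2h* (ENSMUSG00000021018.8) and *Polr2k* (ENSMUSG00000045996.12) span chr16:20717665-20722267 and chr15:36174010-36177010, both on the plus strand. *Polr2b* is the longest, with a span of 39178 bases, and *Polr2i* measures 1443 bases.

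Between 17931614 and 23069143 reads per library fell on genes and between 44162 and 512186 on the ERCC transcripts. These are a spike-in that the study added to the RNA eluted after capture, in proportion to total RNA. Levels per ERCC read are therefore not corrected for the yield of capture. Reads carried no molecular identifiers, so counting errors are a lower limit on the error. *Tet2* itself was read in both genotypes, with 589 to 741 per 1000000 gene reads (RPM) in WT and 529.7 to 643 RPM in the libraries labelled *Tet2*-KO. Its log2 fold change was -0.20 by share (adjusted p = 1.42e-16) and 0.54 per ERCC read. Counts over a whole gene cannot reveal a deleted exon, and the genotypes given here are the labelled ones. Of 8 mES cell markers, *Sox2* was listed at 0 reads in every library, and it lies wholly inside another gene on the same strand, a class almost without counted reads. The 8 markers summed to 2139 to 2289 RPM in WT and 1492 to 1663 in *Tet2*-KO, and of the 7 tested 6 were lower and *Pou5f1* was higher by share. Markers of primitive endoderm summed to 4.16 to 8.36 in WT and 3.76 to 7.60 in *Tet2*-KO. By share 1 of the 3 tested primitive endoderm markers was lower and 0 were higher, although their median log2 fold change was 0.41. Those of feeder fibroblasts, with *Lum* at no more than 1 read, moved with genotype and time. They summed to 15.4 to 15.7 RPM in WT at 10 min, 2.65 to 3.36 at 20 min and 3.64 to 4.51 at 40 min, against 5.33 to 6.72, 11.0 to 12.6 and 5.14 to 6.47 in *Tet2*-KO. Of the 4 tested, 3 were lower in *Tet2*-KO by share at 10 min (median log2 fold change -1.54) and 4 were higher at 20 min (2.03). Trophectoderm markers summed to 17.5 to 23.2 in WT and 23.0 to 28.3 in *Tet2*-KO, and of the 4 tested 1 was higher and 1 lower by share. The part of these differences in the results below was not tested. Fewer cells of a type and less RNA per cell cannot be told apart in these bulk samples.

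*Polr2a* was by far the most highly read member. It received 6004 to 7502 reads per library and *Polr2b* 1930 to 2670, whereas each of the other 8 received between 96 and 723. Genes lying wholly inside an intron of another gene on the same strand had no reads in 99.35% of 154 cases, against 14.29% of 392 on the opposite strand and 13.08% of 11842 without overlap. Reads were therefore taken as counted over whole gene spans by strand, and levels are given per kb of span, although over 14801 genes the reads followed exon length (Spearman's rho 0.40) more closely than span (0.33). *Polr2a* had a median of 13.3 RPM per kb over the 18 libraries (range 11.9 to 16.1), above *Polr2e* with 5.45 (4.56 to 6.05) in all 18. *Polr2e* and *Polr2i* (5.09, range 3.51 to 6.81) overlapped, as did *Polr2d* (3.09), *Polr2k* (3.03) and *Polr2b* (2.83). *Polr2b* lay above *Polr2h* (2.02) in all 18 libraries with no overlap of the ranges. *Polr2h*, *Polr2f* (1.90), *Polr2g* (1.80) and *Polr2c* (1.37) followed, each overlapping the next. The subunits of one enzyme thus differed several-fold in nascent reads per length, and *Polr2a* and *Polr2c* were also first and last per kb of exon, where *Polr2b* moved to the second place and *Polr2e* to the seventh.

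**Figure D1:**
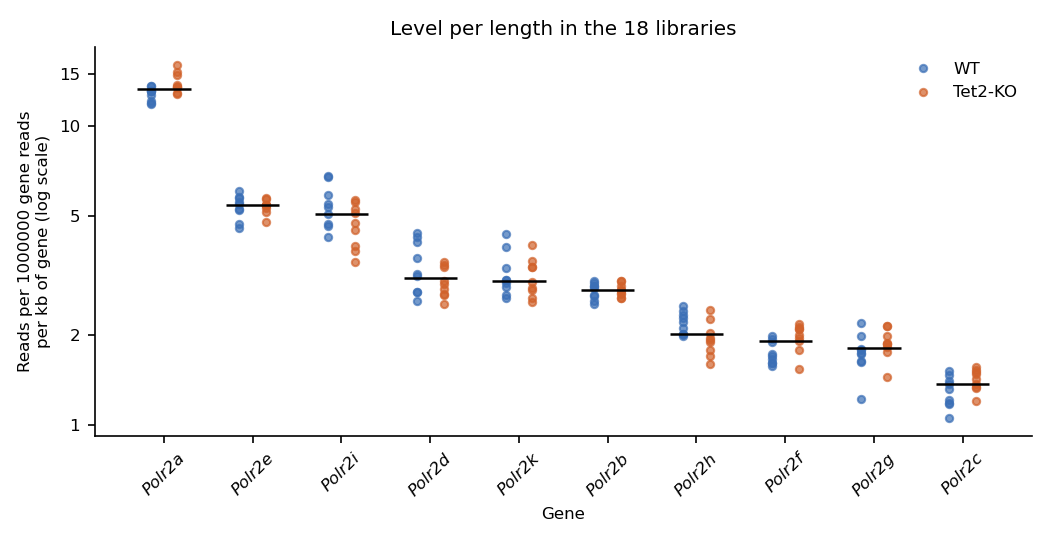
Nascent level of the 10 Pol II subunit genes as RPM per kb of gene span, with points for the 18 libraries and a black line at their median. *Polr2a* lies above all others, with a median of 13.3 against 5.45 for *Polr2e* and 1.37 for *Polr2c*.

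Whether nascent RNA of the Pol II genes differed between genotypes was first asked on the scale of the spike-in. Averaged over 10, 20 and 40 min of EU, all 10 genes were higher in *Tet2*-KO (adjusted p under 0.05 by the quasi-likelihood test of edgeR), but with TMM scaling of the gene reads in place of the spike-in 3 were higher and 1 was lower. Of all 19910 genes tested, 80.5% were higher and 4.15% lower on the spike-in scale, so 10 of 10 is near what most genes did. The median log2 fold change of the members was 0.74 and that of all genes 0.70. At the catalytic core, *Polr2a* had a log2 fold change of 0.86 (SE 0.05, adjusted p = 5.15e-50) and *Polr2b* one of 0.75 (SE 0.05). Among the subunits shared with Pol I and Pol III the values were 0.91 for *Polr2f*, 0.74 for *Polr2e*, 0.69 for *Polr2k* and 0.56 for *Polr2h*. The stalk gene *Polr2g* had 0.84 and its partner *Polr2d* 0.57, and the platform gene *Polr2c* had 0.86 and the jaw gene *Polr2i* 0.52, the lowest of the 10 (SE 0.10, adjusted p = 2.87e-07).

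The levels behind these values are given as reads per 1000 ERCC reads. *Polr2a* had 13.6, 15.0 and 12.8 in the WT libraries at 10 min, 46.8, 50.8 and 43.9 at 20 min and 78.4, 86.6 and 80.1 at 40 min. In *Tet2*-KO the same gene had 30.5, 29.9 and 31.8 at 10 min, 64.0, 73.1 and 70.5 at 20 min and 169.9, 133 and 148 at 40 min. Each *Tet2*-KO library lay above every WT library of the same labelling time, and the gap was widest in proportion at 10 min. *Polr2f*, with the largest average fold change, had 0.992, 0.881 and 0.781 in WT at 10 min against 2.07, 1.48 and 2.27 in *Tet2*-KO, and 5.05, 4.37 and 4.43 against 9.01, 8.54 and 8.14 at 40 min. *Polr2i*, with the smallest, had 0.457, 0.496 and 0.363 in WT at 10 min against 0.785, 0.721 and 0.576 in *Tet2*-KO, and 1.93, 1.58 and 1.63 against 2.17, 2.37 and 2.19 at 40 min. Also for these 2 genes the genotypes did not overlap at either time.

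No overlap between genotypes, with *Tet2*-KO above WT, was seen for all 10 genes at all 3 labelling times. Of all genes tested, 75.6% lay above without overlap at 10 min, 57.2% at 20 min and 71.7% at 40 min. The test called all 10 members higher at each time, beside 79% of all genes at 10 min, 53.7% at 20 min and 68.2% at 40 min. Members' log2 fold changes ran from 0.67 (*Polr2i*) to 1.29 (*Polr2c*) at 10 min, from 0.42 (*Polr2h*) to 0.70 (*Polr2f*) at 20 min and from 0.39 (*Polr2i*) to 0.89 (*Polr2f*) at 40 min. Some calls at 20 and 40 min were lost when 1 library was left out. *Polr2h* at 20 min had an adjusted p of 0.013, which rose to 0.24 without *Tet2*-KO replicate 2 and to 0.059 without WT replicate 3 of that time, and *Polr2i* at 20 min went from 0.0076 to 0.052 without *Tet2*-KO replicate 2. *Polr2i* at 40 min (0.39, adjusted p = 0.036) kept a log2 fold change of 0.35 and 0.41 without *Tet2*-KO replicates 2 and 3 (adjusted p = 0.10 and 0.057). Without WT replicates 2 and 3 it had 0.34 and 0.35 (adjusted p = 0.11 and 0.099).

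**Figure D2:**
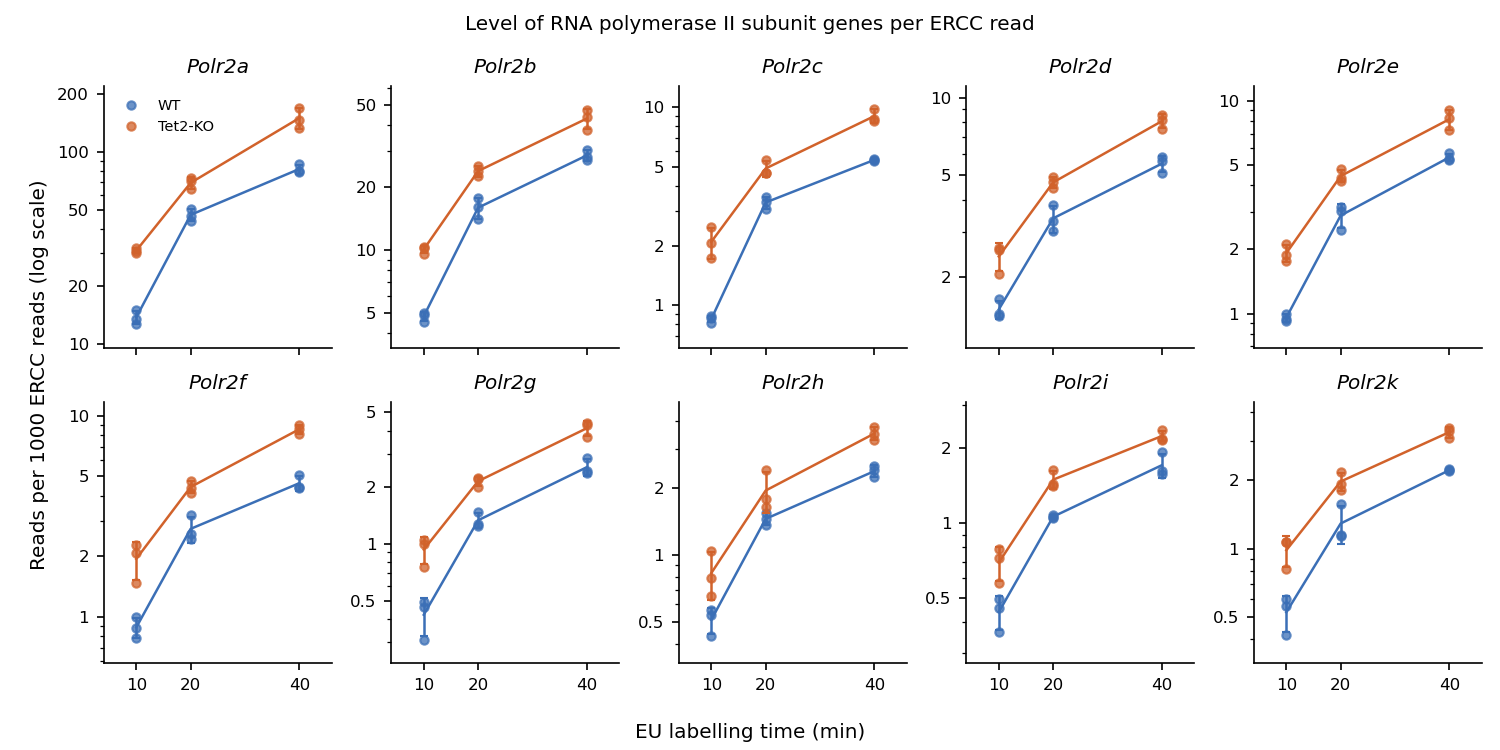
Reads per 1000 ERCC reads (log axis) against EU labelling time in min for each Pol II subunit gene, with points for libraries, lines through the group means and bars for the SD (n = 3). *Tet2*-KO lies above WT without overlap in each panel and at each time on this scale; with TMM scaling the average difference of *Polr2d*, *Polr2h* and *Polr2i* turned negative.

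The difference between genotypes per ERCC read was also compared between 10 and 40 min. All 4 feeder fibroblast markers tested were called higher in this contrast, with a median change of 2.25, and their part in the values below was not tested. The change of the log2 fold change from 10 to 40 min was below 0 for all 10 members, with a median of -0.31 against -0.29 over all genes. Every gene of a library is divided by the same ERCC total, so the 10 signs are not separate observations. The change passed the test for *Polr2b* and *Polr2c*, beside 19.3% of all genes that were called lower in this way. At an unadjusted p under 0.05 it passed for 5 members, and DESeq2 with the same library sizes called 3, with *Polr2e* as the third (-0.41, adjusted p = 0.034). *Polr2b* had 4.89, 5.01 and 4.54 reads per 1000 ERCC reads in WT at 10 min and 28.2, 30.4 and 27.1 at 40 min, and in *Tet2*-KO it had 10.3, 9.60 and 10.4 at 10 min and 47.3, 37.9 and 43.5 at 40 min. Its log2 fold change thus went from 1.07 to 0.59, a change of -0.48 (SE 0.13, adjusted p = 0.0044). *Polr2c* had 0.881, 0.859 and 0.816 in WT at 10 min and 5.36, 5.49 and 5.37 at 40 min, and in *Tet2*-KO 2.07, 1.73 and 2.47 at 10 min and 9.80, 8.69 and 8.47 at 40 min. Its log2 fold change went from 1.29 to 0.73, a change of -0.56 (SE 0.17, adjusted p = 0.011), and the call was lost without *Tet2*-KO replicate 3 at 10 min (-0.43, adjusted p = 0.098). *Polr2a* (-0.27, adjusted p = 0.095) gained the call without *Tet2*-KO replicate 1 at 40 min (-0.37, adjusted p = 0.018) or WT replicate 2 at 10 min (-0.34, adjusted p = 0.024). *Polr2e* (-0.41, adjusted p = 0.071) gained it without the former library (-0.49, adjusted p = 0.032) and *Polr2g* (-0.46, adjusted p = 0.11) without the latter (-0.58, adjusted p = 0.029). Relative to gene reads, none of the 10 changed in this contrast, beside 5.89% of all genes called higher and 3.36% called lower. At an unadjusted p under 0.05 of edgeR 1 of the 10 did (*Polr2b*), DESeq2 with the same library sizes called 0, and *Polr2b* was called lower with TMM scaling (-0.19, adjusted p = 0.036).

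The share of gene reads asks how the Pol II genes moved against the other genes of the same library. Of the 10, 3 were higher and 3 lower in *Tet2*-KO on average, beside 24.6% of all genes higher and 32% lower, and with TMM scaling 3 were higher and 1 was lower (*Polr2d*, -0.13, adjusted p = 0.047). The members' median log2 fold change was 0.01 and that of all genes -0.04. *Polr2a* (0.13, SE 0.02, adjusted p = 2.89e-08), *Polr2c* (0.13, SE 0.05, adjusted p = 0.043) and *Polr2f* (0.17, SE 0.06, adjusted p = 0.018) were higher. *Polr2d* (-0.17, SE 0.06, adjusted p = 0.011), *Polr2h* (-0.18, SE 0.08, adjusted p = 0.047) and *Polr2i* (-0.21, SE 0.08, adjusted p = 0.032) were lower. For *Polr2b* (0.01, SE 0.02), *Polr2e* (0.00, SE 0.05), *Polr2g* (0.11, SE 0.09) and *Polr2k* (-0.04, SE 0.08) no difference was detected. Whether members differ from each other was not tested.

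**Figure D3:**
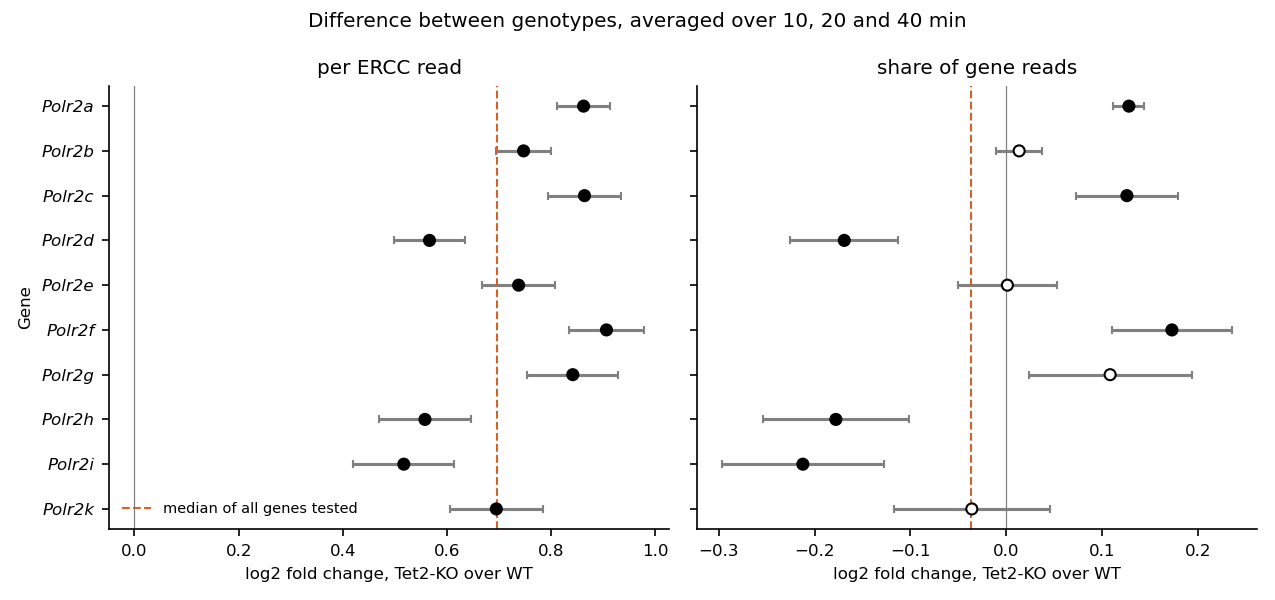
Log2 fold change of *Tet2*-KO over WT, averaged over labelling times, for each Pol II subunit gene per ERCC read and as share of gene reads, with bars for the SE, filled points for an adjusted p under 0.05 and a dashed line at the median of all genes tested. The members lie around the dashed line on both scales, from 0.52 to 0.91 against 0.70 per ERCC read and from -0.21 to 0.17 against -0.04 by share; with TMM scaling 3 members lay above 0 with a call and 1 below.

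*Polr2a* gave the clearest difference in share. In RPM it had 293, 295 and 299.8 in WT at 10 min, 324, 323 and 313 at 20 min and 322, 335 and 335 at 40 min. In *Tet2*-KO it had 318, 333 and 316 at 10 min, 334, 339 and 334 at 20 min and 396, 365 and 373 at 40 min. It was the only one of the 10 genes to lie above WT without overlap at all 3 times. This was so for 18.5% of all genes at 10 min, 22.8% at 20 min and 25.7% at 40 min, and the share at all 3 times was not counted. *Polr2a* also had the most reads of the 10 genes and the smallest SE by share. The log2 fold change was 0.12 at 10 min (adjusted p = 5.05e-04), 0.07 at 20 min (adjusted p = 0.051) and 0.19 at 40 min (adjusted p = 8.5e-07). At 20 min it was called in 6 of 18 fits that left out 1 library. Over those 18 fits the log2 fold change ran from 0.05 to 0.08 and the adjusted p from 0.035 to 0.21. DESeq2 with the same library sizes called 0 members higher at 20 min. The average call of *Polr2a* was kept in each of the 18 fits. *Polr2b*, its partner in the active site, had 103 ± 4.03 (SD, n = 3) in WT and 106 ± 2.15 in *Tet2*-KO at 10 min, 108 ± 6.69 and 116 ± 2.73 at 20 min, and 115 ± 2.19 and 108 ± 3.64 at 40 min. It was called higher at 20 min only (0.10, adjusted p = 0.046), a call that DESeq2 did not make (adjusted p = 0.054) and that was lost in 7 of 18 fits with a library left out, most clearly without WT replicate 3 of that time (0.05, adjusted p = 0.38). At 40 min its *Tet2*-KO libraries lay below WT without overlap and without a call (-0.10, adjusted p = 0.057), which was gained without WT replicate 2 at 10 min (0.045) or WT replicate 3 at 20 min (0.036).

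*Polr2d* had the lowest adjusted p of the genes with a lower share. It had 30.8, 32.1 and 33.0 RPM in WT at 10 min against 26.5, 22.9 and 25.8 in *Tet2*-KO, without overlap. At 20 min it had 20.97, 20.9 and 27.3 in WT against 25.5, 20.6 and 22.3, and at 40 min 24.0, 19.6 and 23.7 against 19.1, 20.6 and 21.5. The groups overlapped at the 2 later times, and the log2 fold change was -0.35 at 10 min (adjusted p = 0.0031), -0.02 at 20 min and -0.14 at 40 min. *Polr2i* had 9.82, 9.75 and 8.49 in WT at 10 min against 8.18, 8.05 and 5.72 in *Tet2*-KO, again without overlap (-0.35, adjusted p = 0.042). *Polr2h* had 11.5, 11.1 and 10.2 against 8.18, 7.33 and 10.4 at 10 min, where 1 *Tet2*-KO library reached into the WT range (-0.34, adjusted p = 0.034). *Polr2c* had 18.9, 16.9 and 19.1 against 21.5, 19.3 and 24.5 at 10 min, without overlap (0.25, adjusted p = 0.027). *Polr2f*, higher on average, had no call at a single time, and its 9 WT libraries ran from 16.9 to 21.3 with a median of 18.2 against 16.5 to 23.3 with a median of 21.6 in *Tet2*-KO.

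The feeder fibroblast markers, whose sums are given above, were also lower in *Tet2*-KO at 10 min, and their part in these values was not tested. At single labelling times the counts of members called were 2 higher and 3 lower at 10 min (17.9% and 27.1% of all genes), 1 higher at 20 min (17.6% higher and 20.7% lower) and 1 higher at 40 min (18.9% and 19.6%). The counts of 0 lower at 20 and 40 min in edgeR were 0 and 1 at an unadjusted p under 0.05, and 0 at both times with DESeq2. Without overlap between the genotypes, 2 members lay above and 2 below WT at 10 min, 3 above at 20 min, and 1 above and 2 below at 40 min. The shares for all genes were 18.5% above and 27.1% below at 10 min, 22.8% and 26.8% at 20 min, and 25.7% and 26.8% at 40 min. Except for *Polr2a*, the average calls by share were near the threshold. *Polr2d* lost its call in 1 of 18 fits (without WT replicate 3 at 20 min, -0.12, adjusted p = 0.052) and *Polr2f* in 1 (without *Tet2*-KO replicate 3 at 10 min, 0.15, adjusted p = 0.052). *Polr2c* lost it in 9 fits, with an adjusted p of up to 0.13, *Polr2h* in 13, up to 0.13, and *Polr2i* in 6, up to 0.090. At 10 min *Polr2c* lost its call without *Tet2*-KO replicate 3 (0.16, adjusted p = 0.20) or WT replicate 2 (0.20, adjusted p = 0.12), and *Polr2i* without *Tet2*-KO replicate 3 (-0.20, adjusted p = 0.28) or WT replicates 1 or 2 (adjusted p = 0.11 and 0.097). *Polr2h* lost it without *Tet2*-KO replicates 1 or 2 (adjusted p = 0.10 and 0.18) or WT replicates 1 or 2 (adjusted p = 0.096 and 0.066).

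**Figure D4:**
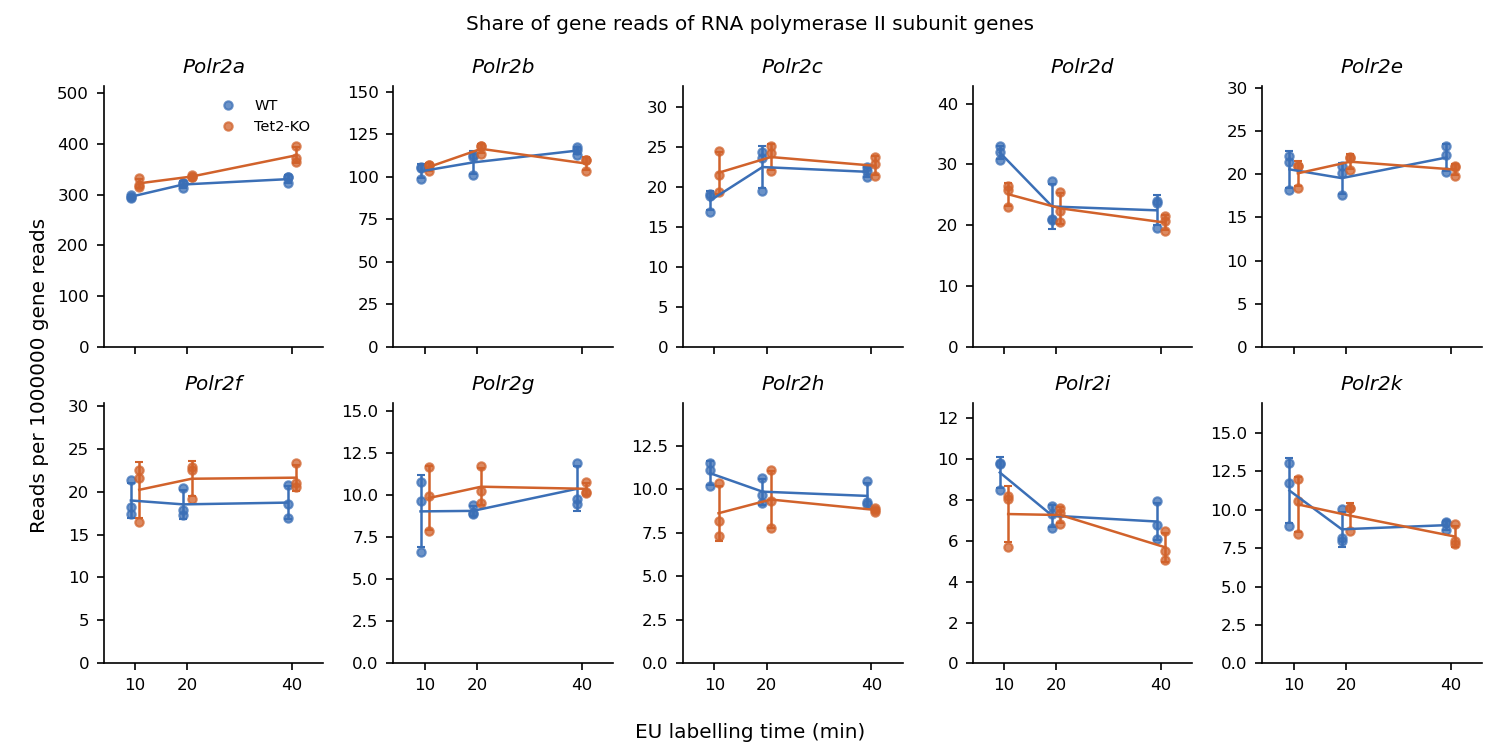
Reads per 1000000 gene reads (RPM) against EU labelling time in min for each Pol II subunit gene, with points for libraries, lines through the group means and bars for the SD (n = 3). *Polr2a* lies higher in *Tet2*-KO at all 3 times and *Polr2d* starts lower at 10 min (25.1 ± 1.90 against 31.9 ± 1.11), while most panels overlap.

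The summed share of the 10 genes was 529 ± 10.2 RPM (SD, n = 3) in WT at 10 min, 547 ± 11.4 at 20 min and 567 ± 5.40 at 40 min. *Tet2*-KO gave sums of 551 ± 6.79, 578 ± 9.71 and 604 ± 16.1. *Polr2a* was the largest part of each sum, with 293 to 396 RPM, so the sum follows that gene.

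Between labelling times the members differed by share in both directions. Each labelling time came from its own dishes. An effect of time therefore cannot be told apart from a difference between these sets of dishes. Per ERCC read, all 10 genes rose from 10 to 40 min in both genotypes, beside 96.7% of all genes in WT and 94.7% in *Tet2*-KO. By share, *Polr2a* (0.16), *Polr2b* (0.16) and *Polr2c* (0.26) rose in WT and *Polr2d* (-0.51, SE 0.09) and *Polr2i* (-0.42, SE 0.14) fell, beside 16.1% of all genes that rose and 29.5% that fell. In *Tet2*-KO, *Polr2a* (0.23, SE 0.03) rose and *Polr2d* (-0.30, SE 0.10) fell, beside 16.5% and 20%. *Polr2k* had log2 changes of -0.32 in both genotypes that missed the threshold, with an adjusted p of 0.056 and 0.084. The rise of *Polr2c* in WT was lost without WT replicate 2 at 10 min (0.21, adjusted p = 0.099) or without WT replicate 1 or 3 at 40 min (adjusted p = 0.053 and 0.066), and the fall of *Polr2i* without WT replicate 2 at 40 min (-0.34, adjusted p = 0.085). *Polr2k* in WT gained a call without WT replicate 1 at 10 min (-0.46, adjusted p = 0.0067). It also gained one, still at -0.32, without *Tet2*-KO replicate 1 or 2 at 10 min (adjusted p = 0.041 and 0.048). The fall of *Polr2d* in *Tet2*-KO was lost without *Tet2*-KO replicate 1 at 10 min (-0.26, adjusted p = 0.074), replicate 3 at 10 min (-0.28, adjusted p = 0.052) or replicate 1 at 40 min (-0.25, adjusted p = 0.088). *Polr2i* in *Tet2*-KO (-0.36, adjusted p = 0.058) gained a call without replicate 3 at 10 min (-0.51, adjusted p = 0.0091) or replicate 2 at 40 min (-0.47, adjusted p = 0.037), and *Polr2k* without replicate 1 at 10 min (-0.45, adjusted p = 0.019). Over all genes the WT median of this log2 change was -0.14 and the *Tet2*-KO median -0.06.

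The members were also set against their gene span. All 3 members over 15 kb (*Polr2a*, *Polr2b* and *Polr2c*, the last in 15 of 18 fits that left out 1 library) were called as rising by share from 10 to 40 min in WT, and none of the 4 under 5 kb was. Of all protein-coding genes tested, 20.0% of those over 15 kb and 16.6% of those under 5 kb were. The SE was 0.03 for *Polr2a* and 0.04 for *Polr2b*, against 0.09 for *Polr2e* and 0.14 for *Polr2i*. Without a call, *Polr2g* (5451 bases) had 0.20 (SE 0.15) and *Polr2e* 0.09. *Polr2h*, *Polr2i* and *Polr2k*, all under 5 kb, lay below 0. Across the 10 genes, Spearman's rho between span and log2 fold change was 0.59 for 40 against 10 min in WT, 0.58 in *Tet2*-KO and 0.70 for *Tet2*-KO against WT, given as a description over 10 genes that share the same libraries. Over all protein-coding genes tested, the 10289 spanning over 15 kb had a median of -0.13 for 40 against 10 min in WT and the 1430 under 5 kb one of 0.01, the opposite order. For *Tet2*-KO against WT their medians were -0.02 and -0.10.

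**Figure D5:**
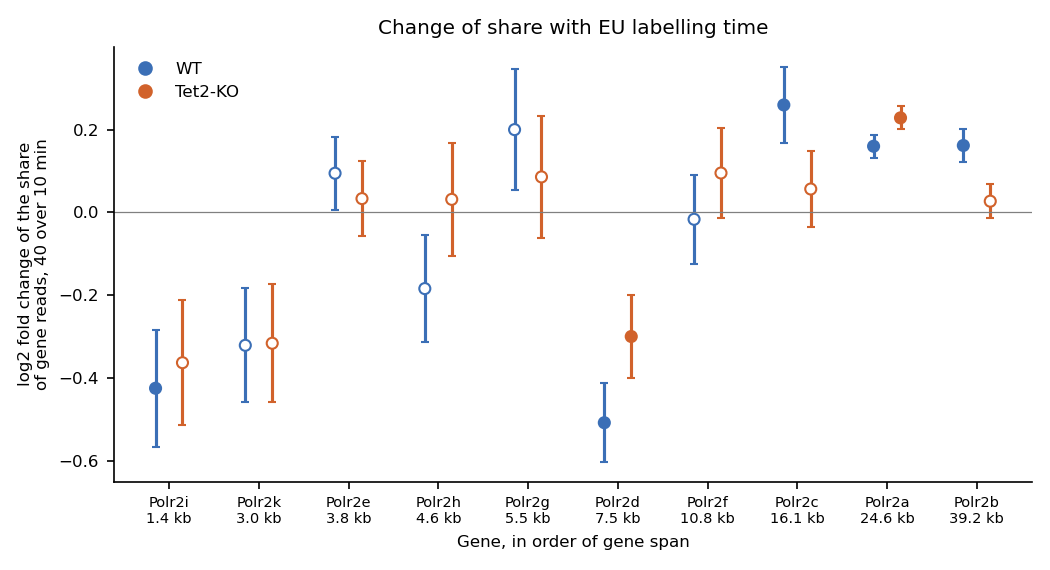
Log2 change of the share of gene reads from 10 to 40 min of EU in WT and *Tet2*-KO for the Pol II subunit genes in order of gene span, with bars for the SE and filled points for an adjusted p under 0.05. In WT, *Polr2a*, *Polr2b* and *Polr2c* lie above 0 with a call and *Polr2g* (0.20) and *Polr2e* (0.09) without one. *Polr2d* lies lowest (-0.51).

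The slope of the level on labelling time is the measure that the study's methods take as a transcription rate, and here it is in reads per 1000 ERCC reads per min. For *Polr2a* it was 2.19 (SE 0.17, n = 9 libraries) in WT and 3.998 (SE 0.27) in *Tet2*-KO, a ratio of 1.83 (SE 0.19). *Polr2f* had the next ratio, 1.82 (SE 0.20). The ratios of *Polr2c* (1.56), *Polr2g* (1.51), *Polr2h* (1.46), *Polr2d* (1.43), *Polr2e* (1.41), *Polr2b* (1.40) and *Polr2k* (1.35) followed, and *Polr2i* came last with 1.21 (SE 0.17), from slopes of 0.0411 and 0.0496. The median ratio was 1.45. Apart from *Polr2f* and *Polr2c*, neighbouring ratios differ by less than their standard errors, and no test was made of their order. Over the 19689 genes tested whose slopes were above 0 in both genotypes, the median ratio was 1.55. The ratios depended on the 40 min libraries. With 10 and 20 min only, *Polr2a* had 1.15 (SE 0.11) and *Polr2i* 1.29 (SE 0.17), so their order turned, and the median over all genes was 1.09. With 20 and 40 min only, *Polr2a* had 2.35 (SE 0.38) and *Polr2i* 1.15 (SE 0.24), and all genes 1.95.

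The genes whose log2 share of gene reads was most like that of *Polr2a* over the 18 libraries were *Nasp*, a histone chaperone (Pearson r = 0.947), *5730522E02Rik* (r = 0.946) and *Uri1*, a prefoldin-like protein of the complex that helps to assemble RNA polymerases (r = 0.945). Other Pol II genes were less like it, from 0.47 for *Polr2c* to -0.81 for *Polr2d* and *Polr2i*. These values hold the differences between the 6 groups and the fixed total of each library, and are a description. *Uri1* had a median of 176 RPM in WT (161 to 199.6) and 205 in *Tet2*-KO (193 to 248.8).

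The remaining annotated subunits and the Pol II bound protein *Polr2m* were higher per ERCC read as well, with log2 fold changes of 0.90 for *Polr2j*, 0.60 for *Polr2l* and 0.84 for *Polr2m*. By share *Polr2j* (0.16, adjusted p = 0.012) and *Polr2m* (0.11, adjusted p = 4e-04) were higher, and *Polr2l* had -0.14 (adjusted p = 0.19). *Polr2j* belongs to the same platform as *Polr2c*. The counts that follow stand beside 80.5% of all genes higher and 4.15% lower per ERCC read, and 24.6% higher and 32% lower by share. All 6 genes specific to Pol I and both subunits shared by Pol I and Pol III were higher per ERCC read, against 0 and 1 with TMM scaling. By share 2 of the 6 were lower, though none with TMM scaling, with *Znrd1* (0.06) and *Polr1e* (-0.15, adjusted p = 0.010) at the ends, and *Polr1d* (0.31, adjusted p = 1.91e-14) was higher while *Polr1c* had 0.00. Of 11 Pol III genes, 10 were higher per ERCC read (with TMM scaling 2 higher and 6 lower), and by share 1 was higher and 6 were lower. The list medians by share were -0.04 for Pol I and -0.12 for Pol III, against 0.01 for the 10 Pol II genes and -0.04 for all genes.

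The same percentages of all genes apply to the factors that work with Pol II. Of 18 general initiation factors, which bring Pol II to promoters, 17 were higher and 1 was lower per ERCC read (6 and 5 with TMM scaling), and by share 5 were higher and 7 lower. The exception was *Gtf2h2*, a subunit of TFIIH. It had 214 to 229 RPM in WT (median 221) and 77.5 to 89.1 in *Tet2*-KO (median 84.4), a log2 fold change of -1.42 by share (SE 0.02) and -0.68 per ERCC read (SE 0.05). *Gtf2a1*, of TFIIA, was at the other end by share (0.17). Of 11 factors for assembly and nuclear import of Pol II, 10 were higher per ERCC read (with TMM scaling 6 higher and 2 lower), and by share 3 were higher and 2 lower, from *Rpap1* (0.26) to the chaperone ATPase *Ruvbl1* (-0.64, adjusted p = 7.02e-19). All 11 phosphatases and binders of the C-terminal domain were higher per ERCC read (with TMM scaling 6 higher and 1 lower), and by share 5 were higher and 2 lower, from *Ctdspl* (0.39) to *Ctdsp2* (-0.27).

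Some of the 10 genes overlap a neighbour on the opposite strand, whose reads can be told apart only as far as the library's strand information allows. *Polr2c* overlaps *Dok4* over 9708 bases, but *Dok4* had only 11 to 50 reads per library (share -0.32, adjusted p = 0.17). *Polr2i* overlaps *Tbcb*, a tubulin folding cofactor, over 325 bases, with 113 to 233 reads (0.13, adjusted p = 0.26). *Polr2b* overlaps *Igfbp7* (-0.07, adjusted p = 0.24) and *Polr2h* overlaps the chloride channel gene *Clcn2* (-0.12, adjusted p = 0.051), by 85 and 82 bases. *Polr2f* overlaps *1700088E04Rik* by 245 bases, which had 0 to 19 reads per library and was lower (-1.38, adjusted p = 9.26e-04), opposite in direction to *Polr2f*. *Polr2k* has an annotated processed pseudogene on another chromosome, so reads that align to both are uncertain. *Gm42758*, a processed pseudogene inside *Polr2b* on the same strand, was listed at 0 in every library.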

How the data were processed

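Nascent RNA of 18 libraries was compared. The authors trimmed reads with Trimmomatic 0.39, aligned them with HISAT2 2.2.1 to mm10 with the ERCC sequences and counted them with HTSeq 0.12.4, and they deposited raw counts per gene. The HTSeq settings are not given in the sources used here and were read from the nested genes described above, so length is the gene span free of same-strand genes, where the plan had named exons first. Rows that name no gene (no feature 13.16% to 16.88% of the reads summed over all rows, ambiguous 2.316% to 2.504%, not unique 5.236% to 5.993%) were left out. Of 54446 gene identifiers, 54409 were found in GENCODE M21. Genes passing filterByExpr (minimum count 10) numbered 19910. They were fitted with edgeR 4.0.16 (R 4.3.3, quasi-likelihood, 6 groups, Benjamini-Hochberg over all genes at 0.05) with ERCC reads or gene reads as library size. The SE is the absolute log2 fold change over the square root of F. Correlations used log2 of RPM plus 0.5. The members and lists were chosen with earlier results of these data known. The other named genes are the highest and lowest of each list by share, the 3 protein-coding genes most like *Polr2a*, further subunits, overlapping genes and *Tet2*. Alternatives were TMM, DESeq2 1.42.0, other count filters, fewer ERCC transcripts, a replicate block, other slope fits, exon length and each library left out. Simulated counts with known changes were used to test the fits per ERCC read, for the average and the 10 min difference only. The fits by share, the other contrasts and the slopes were not simulated.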

Additional observations from a re-analysis of the deposited data

Results flagged for a closer look

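Among the 10 genes, 2 had a difference between *Tet2*-KO and WT that itself differed between 10 and 40 min of EU, tested as an interaction per ERCC read. The change of the log2 fold change was -0.48 for *Polr2b* and -0.56 for *Polr2c*. Over all genes the median of this change was -0.29, and 19.3% of genes were called lower. By share of gene reads the same changes were -0.13 (adjusted p = 0.16) for *Polr2b* and -0.20 (adjusted p = 0.38) for *Polr2c*.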

How the results depend on the processing

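Scaling mattered most. Per ERCC read the 10 members were all higher on average and at each labelling time, whereas TMM gave 3 higher and 1 lower on average, 3 and 1 at 10 min, 2 higher at 20 min and 1 higher at 40 min, and the change of the difference was called lower for 1. DESeq2's size factors gave 3 and 1, 2 and 1, 2, 1 and 1. Both remove the difference in total nascent RNA by construction. The average log2 fold changes set against those per ERCC read then turned negative for *Polr2d* (-0.13 with both), *Polr2h* (-0.14 with both) and *Polr2i* (-0.17 and -0.18), and for *Polr2k* with DESeq2's size factors (-0.00077). Against the plain share, TMM turned *Polr2k* to 0.0039. By share, TMM, DESeq2's size factors and no count filter each called 1 lower on average and 1 lower at 10 min. At 20 min 2 were called higher with TMM, with DESeq2's size factors and with at least 10 counts in every library, and 0 with no count filter and with DESeq2 on the same library sizes. The change of the difference was lower for 1, and 40 against 10 min in WT lower for 1, with TMM and with DESeq2's size factors, and 40 against 10 min in *Tet2*-KO lower for 2 with at least 10 counts in every library. For these the cause was not tested. The median ratio of slopes was 1.26 with 10 and 20 min only.

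With TMM in place of ERCC reads, the lists held 0 higher (Pol I), 1 higher (shared by Pol I and III), 2 higher and 6 lower (Pol III), 6 higher and 5 lower (initiation factors), 6 higher and 2 lower (assembly) and 6 higher and 1 lower (C-terminal domain). By share, TMM gave 0 lower for Pol I, 2 higher for Pol III, 6 higher for assembly and 1 lower for the C-terminal domain.

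Leaving out 1 library at a time, members called by share ranged from 1 to 3 higher and 0 to 3 lower on average, 1 to 2 higher and 1 to 3 lower at 10 min, 0 to 2 higher at 20 min, 0 to 1 lower at 40 min, 1 to 3 lower for 40 against 10 min in WT and 0 to 2 in *Tet2*-KO. Per ERCC read, the change of the difference ranged from 1 to 4 lower. The share log2 fold changes of *Polr2b* (-0.0035 to 0.024), *Polr2e* (-0.027 to 0.022) and *Polr2k* (-0.083 to 0.0083) changed sign. A group with a library left out keeps 2, in a fit that shares the spread over all groups.

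Replicate numbers did not pair the samples. The deviations of same-numbered libraries had a median correlation of -0.007 (range -0.072 to 0.064, 45 pairs). With the replicate block, *Polr2h* by share kept -0.18 and missed the threshold (adjusted p = 0.055), and no other average call of a member changed. The 8 members other than *Polr2a* and *Polr2b* had 96 to 723 reads per library, with an SE by share of 0.05 to 0.09 (log2) against 0.02 for these 2.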
